A study of Homo sapiens with 6 samples.

Results

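NCOA and NCOR genes encode coregulators, proteins that nuclear hormone receptors recruit to switch transcription on or off. The set was fixed by name as 8 genes, and every probe set annotated with only one of these symbols was taken, without regard to its value. The genes themselves, and the gene lists below, were chosen with earlier results of these data known. Shares of all probe sets or genes beside them are therefore given for scale only. Probe sets were matched for 6 of the 8 genes (NCOA1, NCOA2, NCOA4, NCOA5, NCOA6 and NCOA7), giving 16 of the 54613 probe sets tested, while NCOA3 and NCOR1 were not analysed here. The cells were HCT116, a human colon carcinoma line. They were transfected with control oligos or with precursor molecules of miR-224, in both groups at 50 nM, and total RNA was collected 24 h later. One Affymetrix expression array was run for each of 3 control and 3 miR-224 samples, numbered 1 to 3 in both groups. The series describes them as pairs from 3 independent experiments, so each miR-224 array was set against the control array of the same number. Expression values are those of RMA, a method that yields 1 log-scale value for each probe set, and are read here as log2, although the base is not stated.

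Nuclear receptors are transcription factors whose activity is set by hormones, vitamins and lipids. A receptor that has bound its ligand exposes a surface for coactivators, which carry short LXXLL motifs and bring enzymes that acetylate or methylate histones. Without ligand, many receptors hold corepressors, which bring histone deacetylases. A microRNA pairs through its seed, bases 2 to 8, with target sites in messenger RNAs, which become less stable or are translated less.

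The mature arms of miR-224 are shown because the seed sets which transcripts the transfected molecule can pair with. They are given 5′ to 3′ with the seed in capitals, from RefSeq (GRCh38.p14). The 5p arm lies at chrX:151958628-151958652 and the 3p arm at chrX:151958584-151958606, both on the minus strand.
hsa-miR-224-5p: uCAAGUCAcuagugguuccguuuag
hsa-miR-224-3p: aAAAUGGUgcccuagugacuaca
The arms share no seed, and the labels do not say which arm the precursor was designed to yield. A transcript site that pairs with the whole seed reads TGACTTG for the 5p arm and ACCATTT for the 3p arm. Matches in the coregulator transcripts were not analysed here, and neither was the level of miR-224 itself.

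Experiment 1 stood apart from the other two. The array's control probe sets for the 5′ end of the actin and GAPDH transcripts lay below those for the 3′ end by log2 differences of -9.06 to -8.12 on both arrays of experiment 1, against -0.15 to -0.01 in experiments 2 and 3. Both groups hold 1 array of experiment 1, and the main values of the coregulators are given with and without it. All 8 epithelial markers examined, among them EPCAM, KRT18 and CDH1, lay above the median level of all probe sets (3.48). Of 9 measured markers of blood, vessel, stromal and liver cells, 5 lay below it. The others were VWF (3.54), DCN (4.07), PECAM1 (4.47) and COL1A1 (5.96). COL1A1 thus read above the epithelial markers CDX2 (5.33) and VIL1 (3.95). A probe set with a mean under that median is called dim below.

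NCOA6 was lower in the miR-224 cells of experiments 2 and 3 and was level with its control in experiment 1. NCOA6 is a coactivator that binds many ligand-bound receptors and belongs to a complex with the histone H3K4 methyltransferases KMT2C and KMT2D. Its bright probe set 208979_at read 7.53, 7.30 and 6.99 in the control cells of experiments 1, 2 and 3. In the miR-224 cells it read 7.59, 6.36 and 6.26. Both low values were those of miR-224 cells in experiments 2 and 3, while the miR-224 array of experiment 1 was the highest of all 6, so that the groups overlapped. The control mean was 7.28 ± 0.27 (SD, n = 3) and the miR-224 mean 6.74 ± 0.74.

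Within experiments 1, 2 and 3 the NCOA6 difference, miR-224 minus control, was 0.05, -0.94 and -0.73. The mean difference was -0.54 ± 0.18 (SE of the moderated fit), a ratio of 0.687 if the base is 2, and the 3 differences had an SD of 0.52. It missed the threshold over all probe sets (limma with experiment as a block, adjusted p = 0.40, unadjusted p = 0.016). Of all probe sets, 0.833% had a lower difference. Without experiment 1 it was -0.84 ± 0.13 and stayed just outside the threshold (limma adjusted p = 0.055). None of the other 15 coregulator probe sets passed in that fit either, against 0.242% of all probe sets called lower and 0.00916% called higher. An unplanned setting, added once values were known, kept only the brightest probe set of each gene and left out experiment 1. There NCOA6 passed over 19775 tests (limma adjusted p = 0.022), among 147 genes called lower and 27 called higher. Because this setting drops the experiment in which NCOA6 was level, the pass cannot decide whether NCOA6 differed. Without experiment 2 the NCOA6 difference was -0.34, and without experiment as a block the limma unadjusted p was 0.21. An exact permutation test over 3 pairs cannot give a two-sided p under 0.25.

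The second NCOA6 probe set, 1568874_at, did not differ beyond its error. It read 2.29, 2.24 and 2.30 in control cells and 2.42, 2.18 and 2.33 in miR-224 cells, a mean difference of 0.03 ± 0.10 (SE). It is dim, with both group means under the median of all probe sets. The median over both NCOA6 probe sets was -0.25, and it was -0.43 without experiment 1.

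**Figure D1:**
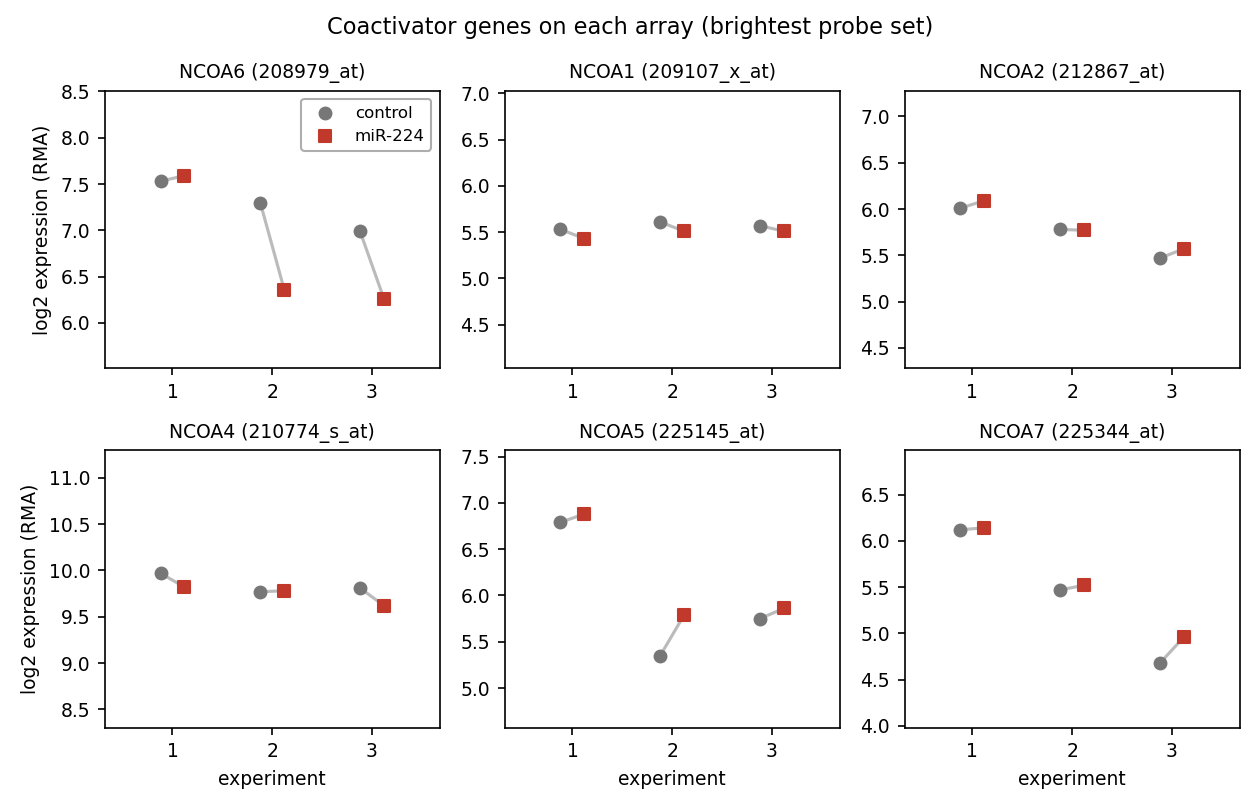
Log2 expression (RMA) of the brightest probe set of each coactivator gene on each of the 6 arrays, by experiment, with grey circles for control cells, red squares for miR-224 cells and lines joining arrays of one experiment. All panels span 3 log2 units. NCOA6 was 0.94 and 0.73 lower in experiments 2 and 3 and level in experiment 1. The range between experiments was widest for NCOA5, NCOA6 and NCOA7 (1.26, 0.93 and 1.31). It exceeded the difference between groups for these and for NCOA2 (0.53) and NCOA4 (0.18), as for 86.1% of all probe sets.

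NCOA1 and NCOA2 are members of the p160 family, which bind receptors directly and recruit the acetyltransferases CREBBP and EP300. Neither differed beyond its error. The brightest NCOA1 probe set, 209107_x_at, read 5.53, 5.61 and 5.57 in control cells and 5.43, 5.51 and 5.51 in miR-224 cells. All miR-224 values lay under all control values, but the gap was narrow, at -0.10, -0.10 and -0.06 within experiments and -0.09 ± 0.10 (SE) on average (-0.08 without experiment 1). This was the only coregulator probe set of the 16 whose groups did not overlap, against 2.64% of all probe sets in this direction and 4.02% in the other. Its name ends in x_at, the array maker's mark for probes that can bind other transcripts too. The other 3 NCOA1 probe sets averaged -0.09 (210249_s_at), 0.08 (209106_at) and 0.09 (209105_at), with differences within experiments from -0.37 to 0.47.

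The brightest NCOA2 probe set, 212867_at, read 6.01, 5.78 and 5.47 in control cells of experiments 1, 2 and 3. In miR-224 cells it read 6.09, 5.77 and 5.57, a mean difference of 0.06 ± 0.10 (SE), or 0.05 without experiment 1. Its level followed the experiment, while the arrays of each pair lay within 0.10 of each other. Of the others, 205731_s_at averaged -0.12, and the dim 215605_at and 205732_s_at averaged 0.05 and -0.14. The lowest single NCOA2 difference, -0.55, was that of 205732_s_at in experiment 1, where this probe set read 2.71 and 2.16 against 3.22 or more on the other 4 arrays.

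NCOA4 was first described as a partner of the androgen receptor and serves as the autophagy receptor that delivers ferritin for breakdown. Its only probe set here, 210774_s_at, read 9.97, 9.77 and 9.81 in control cells and 9.82, 9.78 and 9.62 in miR-224 cells. The mean difference was -0.11 ± 0.10 (SE), or -0.08 without experiment 1, and the groups overlapped. RefSeq lists 4 pseudogenes named for NCOA4, and whether this probe set also reads them was not tested.

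NCOA5 binds oestrogen receptors and can act as coactivator or corepressor. Its 2 probe sets had means of opposite sign, and neither passed the test. The brighter one, 225145_at, read 6.79, 5.35 and 5.75 in control cells and 6.88, 5.79 and 5.86 in miR-224 cells, higher in each experiment by 0.09, 0.44 and 0.11. The mean was 0.21 ± 0.11 (SE; limma unadjusted p = 0.097, adjusted p = 0.59), and it was 0.28 without experiment 1 and 0.10 without experiment 2. Probe set 234471_s_at read 4.69, 5.33 and 4.84 in control cells and 4.54, 4.87 and 4.90 in miR-224 cells, a mean difference of -0.18 ± 0.13. It was -0.20, -0.05 and -0.31 without experiments 1, 2 and 3 in turn. The probe sets also disagreed on the experiments, since 225145_at was brightest in experiment 1 and 234471_s_at was dimmest there.

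NCOA7 is an oestrogen receptor partner with a TLDc domain, a fold shared with oxidation resistance proteins that act on the vacuolar proton pump. The bright probe set 225344_at read 6.12, 5.47 and 4.68 in control cells of experiments 1, 2 and 3. In miR-224 cells it read 6.14, 5.52 and 4.96, a mean difference of 0.12 ± 0.11 (SE), or 0.16 without experiment 1 and 0.03 without experiment 3. Its range between experiments, 1.31, was far larger than any difference within a pair, of which the largest was 0.28. The dim probe set 243807_at read 2.80, 3.16 and 2.81 in control cells and 2.37, 2.60 and 2.85 in miR-224 cells. Its mean difference of -0.31 ± 0.13 had a limma unadjusted p of 0.046 and an adjusted p of 0.50, and it came from experiments 1 and 2 (-0.43 and -0.56), with 0.04 in experiment 3. It was -0.26, -0.19 and -0.49 without experiments 1, 2 and 3 in turn. The other dim probe set, 1568805_at, averaged -0.09 ± 0.10. RefSeq also lists 1 antisense gene named for NCOA7.

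Over the 16 coregulator probe sets, 0 passed the adjusted threshold, and 0 of all 54613 did. At an unadjusted p under 0.05 (limma with the block), 2 of 16 were lower, NCOA6 208979_at and NCOA7 243807_at, against 5.39% of all probe sets. In the other direction 0 of 16 were higher, against 4.41%. Without experiment 1, NCOA6 alone remained of the 2, against 6.32% of all probe sets. The fit without experiment as a block had 0 of 16 in either direction, against 0.791% lower and 1.16% higher. With an intensity trend and robust variances, limma called 28 of all probe sets (0.0513%) and 0 of the 16. In that fit NCOA6 208979_at had an adjusted p of 0.31.

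Mean differences of the 16 ran from -0.54 to 0.21, with 9 below 0 and 7 above, and a median of -0.09 against 0.0054 over all probe sets. The median size of the difference was 0.10, as it was over all probe sets. Signs agreed across experiments for 4 of 16: NCOA1 209107_x_at and NCOA7 1568805_at were lower in each experiment, against 14.8% of all probe sets, and NCOA5 225145_at and NCOA7 225344_at were higher in each, against 16.5%. For 15 of 16 the range between experiments exceeded the difference between groups, as it did for 86.1% of all probe sets. Among the 6 brightest probe sets, 3 were lower and 3 higher.

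**Figure D2:**
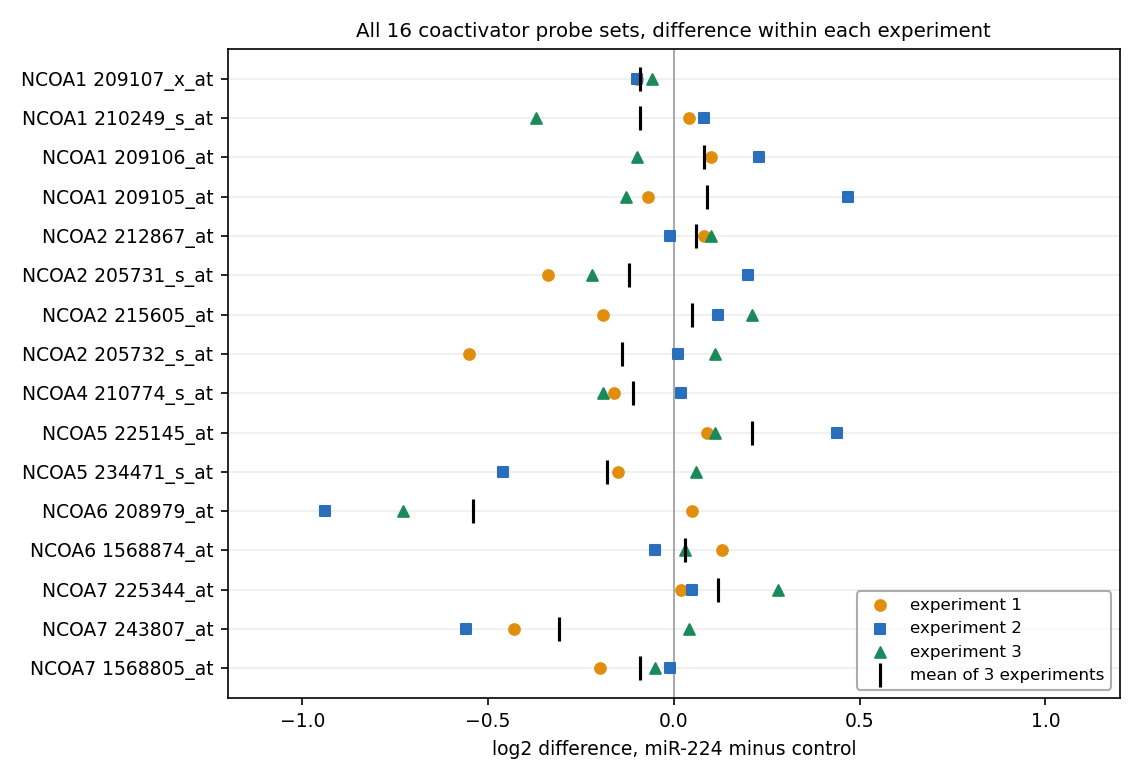
Log2 difference, miR-224 minus control, within each experiment for all 16 coactivator probe sets, with orange circles, blue squares and green triangles for experiments 1, 2 and 3 and black bars for their mean. The mean of NCOA6 208979_at lies lowest at -0.54, carried by experiments 2 and 3, while most other means lie within 0.20 of 0.

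The 5 genes whose 3 within-experiment differences lay closest to those of NCOA6 208979_at, out of 13170 genes not under the median level, were IKBKB, PRDX3, BAZ2A, NFATC2IP and ATG4A. Their root mean square distances to it over the 3 experiments were 0.0319, 0.0550, 0.0562, 0.0589 and 0.0593 log2 units. IKBKB, a kinase that activates NF-kappaB, differed by 0.11, -0.94 and -0.75 in experiments 1, 2 and 3. PRDX3, a mitochondrial peroxidase, differed by -0.02, -0.97 and -0.67. BAZ2A, a subunit of a chromatin remodeller of the nucleolus, differed by 0.06, -0.99 and -0.65. All 5 were thus about level in experiment 1 by the way they were chosen.

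Genes of the NCOA6 complex mostly had a lower mean in the miR-224 cells, though none passed over all probe sets. The list holds 10 genes, namely the methyltransferases KMT2C and KMT2D, the core subunits ASH2L, RBBP5, WDR5 and DPY30, the demethylase KDM6A, PAXIP1, PAGR1 and MEN1, which belongs to related complexes. With each gene read by its brightest probe set, 9 of 10 had a lower mean, against 46.8% of all 19775 genes. Of these, PAXIP1 (-0.07 ± 0.10, SE), MEN1 (-0.07 ± 0.11) and KMT2C (-0.06 ± 0.12) did not differ beyond their error. The median difference over the 10 genes was -0.16, against 0.01 over all genes. It was -0.02, -0.19 and -0.19 in experiments 1, 2 and 3, against 0.02, 0.00 and 0.01. In 6 of 10 the difference was below 0 in each experiment, against 14.4% of all genes, and in 0 of 10 it was above 0 in each, against 18.3%. Some of these 6 were close to level in experiment 1, at -0.01 (WDR5), -0.02 (PAXIP1) and -0.07 (KMT2D). The rest stood there at -0.15 (RBBP5), -0.16 (DPY30) and -0.29 (ASH2L). At an unadjusted p under 0.05 (limma with the block) 2 of 10 were lower, against 5.19%, and 0 were higher, against 5.05%. The shares of all genes, here and below, include 6604 dim genes, whereas 0 of these 10 were dim. Among probe sets at or above the median level, fitted alone, 7.15% were lower and 4.57% higher at this p. The lower mean held for 9 of 10 without experiment 1 and for 7 of 10 without experiment 3.

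ASH2L, a core subunit that activates the methyltransferase, had the largest difference of the complex. It read 8.16, 8.13 and 7.97 in control cells and 7.87, 7.19 and 7.31 in miR-224 cells. Unlike those of NCOA6, all 3 miR-224 values lay under all 3 control values, which held for 2.64% of all probe sets. The differences were -0.29, -0.94 and -0.66 in experiments 1, 2 and 3, with a mean of -0.63 ± 0.14 (SE; limma adjusted p = 0.26, unadjusted p = 0.0015). Without experiment 1 ASH2L was at -0.80 and did not pass over all probe sets (limma adjusted p = 0.068). It passed only in the unplanned setting that also keeps just the brightest probe sets (limma adjusted p = 0.027). That setting called 147 genes lower and drops the experiment with the smallest ASH2L difference, so the pass cannot decide whether ASH2L differed. ASH2L has 1 probe set here, and RefSeq lists 4 pseudogenes named for it.

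KMT2D differed by -0.07, -0.41 and -0.60 on its brightest probe set, with a mean of -0.36 ± 0.13 (SE; limma adjusted p = 0.42). Its other probe sets did not all share this sign. Those above the median level averaged -0.36, -0.05, 0.20 and 0.25, and the mean of all KMT2D probe sets was -0.04. RBBP5, with 1 probe set, differed by -0.15, -0.63 and -0.09, and its mean of -0.29 was -0.12 without experiment 2.

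Corepressor genes divided. Of 19 measured, 8 had a lower and 11 a higher mean, with a median of 0.03, and 0 passed after adjustment. Lower at an unadjusted p under 0.05 (limma with the block) were 3 of the 19, namely TBL1X, TBL1XR1 and SPEN, against 5.19% of all genes, and 2 were higher, against 5.05%. TBL1X and TBL1XR1, subunits of the NCOR and HDAC3 complex, differed by -0.34 ± 0.11 (SE) and -0.29 on average on their brightest probe sets. Both were lower in each experiment. TBL1XR1 has 6 probe sets, and only its brightest is given here. TBL1X was at -0.42 without experiment 1. Another TBL1X probe set, 201867_s_at, was lower by more, at -0.62, -1.15 and -0.56 in experiments 1, 2 and 3 (limma unadjusted p = 0.00038, adjusted p = 0.23). Others of TBL1X above the median level averaged -0.37 and -0.11. HDAC3, the deacetylase of the same complex, and GPS2, a further subunit, were near 0 at -0.05 and 0.01.

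HR, a corepressor of the thyroid hormone and vitamin D receptors, was higher in each experiment, by 0.21, 0.40 and 0.46. Its 3 miR-224 values lay above the 3 control values, which held for 4.02% of all probe sets. The mean was 0.36 ± 0.11 (SE; limma adjusted p = 0.36), or 0.43 without experiment 1. Its other probe sets averaged 0.21 and 0.10. The demethylase gene KDM1A was higher by 0.20, 0.48 and 0.23, with overlapping groups.

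**Figure D3:**
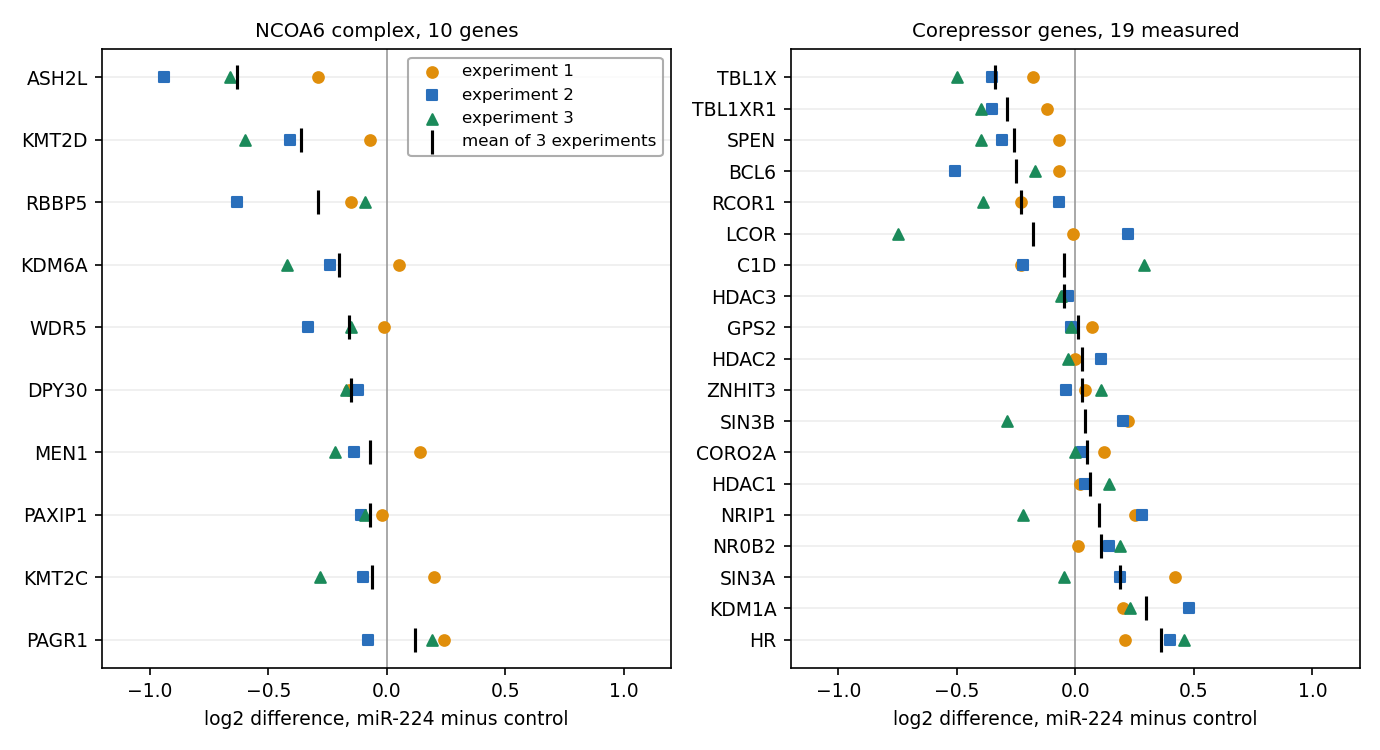
Log2 difference, miR-224 minus control, within each experiment for the brightest probe set of the 10 genes of the NCOA6 complex (left) and of 19 corepressor genes (right), with symbols for experiments 1, 2 and 3 and black bars for their mean. The means of the complex lie to the left of 0 except that of PAGR1 (0.12), with ASH2L lowest at -0.63, whereas corepressors spread from -0.34 (TBL1X) to 0.36 (HR).

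Among acetyltransferases and other coactivators, 13 of 24 measured genes had a lower and 11 a higher mean, with a median of -0.02. At an unadjusted p under 0.05 (limma with the block), 0 of 24 were lower, against 5.19% of all genes, and 1 was higher, a share near the 5.05% of all genes. None passed after adjustment. The 1 gene was KAT5, an acetyltransferase also known as TIP60, which stood at 0.11, 0.49 and 0.26 in experiments 1, 2 and 3 (mean 0.29, with 0.37 without experiment 1 and 0.19 without experiment 2). Its other probe sets had the same sign in each experiment, with means of 0.26 for 206689_x_at and 0.55 for 214258_x_at (limma unadjusted p = 0.00089, adjusted p = 0.25). All 3 KAT5 probe sets, including the brightest, 209192_x_at, bear the x_at mark. Whether they also read other transcripts was not tested. ASCC1, a subunit of a coactivator complex, averaged -0.27 and was level in experiment 1, at 0.11, -0.45 and -0.46. It was -0.46 without experiment 1 and -0.17 without experiment 2 or 3. PRMT1, an arginine methyltransferase, averaged 0.21, of which 0.10 was left without experiment 1.

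Of the nuclear receptors, 38 of 46 were measured, 22 with a lower and 16 with a higher mean and a median of -0.02. At an unadjusted p under 0.05 (limma with the block), 2 of 38 were lower, NR4A2 and NR5A2, a share near the 5.19% of all genes, and 0 were higher, against 5.05%. NR4A2, an orphan receptor induced early after stimulation, differed by -0.25, -0.68 and -0.34, with a mean of -0.42 ± 0.12 (SE; limma adjusted p = 0.34) and -0.51 without experiment 1. Both other NR4A2 probe sets averaged -0.25 and were lower in each experiment. NR5A2 was lower by 0.26 on its brightest probe set, while its other 3 were dim and averaged 0.05, -0.08 and 0.12. PPARG, a receptor for fatty acids, was higher in each experiment, by 0.44, 0.10 and 0.23. Its 3 miR-224 values lay above the control values (7.56 against 7.51 at the closest), which held for 4.02% of all probe sets. Its mean was 0.25 ± 0.11, and 0.16 without experiment 1.

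Genes that receptors are known to regulate showed no common direction. Of 38 measured, 17 had a lower and 21 a higher mean, with a median of 0.02. MYLIP was the 1 gene lower at an unadjusted p under 0.05 (limma with the block), against 5.19% of all genes. In the other direction 3 were higher, KLF9, KLF15 and the dim PLAAT4, against 5.05%, so that neither count stood far from the share of all genes. MYLIP, a ubiquitin ligase gene regulated by oxysterol receptors, differed by -0.43, -0.52 and -0.22 in experiments 1, 2 and 3, with a mean of -0.39 ± 0.11 (SE; limma adjusted p = 0.34) and -0.37 without experiment 1. Of its other probe sets above the median level, 2 were lower by more (-0.48 and -0.52) and 2 lay near 0 (-0.10 and 0.08). KLF9, a target of glucocorticoid and thyroid hormone receptors, averaged 0.37 on its brightest probe set (0.24 without experiment 2), but -0.16 on another above the median level. KLF15, a glucocorticoid receptor target, averaged 0.26 and 0.17 on its probe sets.

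Among genes that work with NCOA4 in iron handling and autophagy, a pair stood out in opposite directions. FBXL5 encodes the iron-sensing subunit of the ligase that degrades IREB2, a repressor of ferritin synthesis. Its brightest probe set read 7.33, 6.65 and 6.36 in control cells and 6.92, 5.86 and 5.22 in miR-224 cells of experiments 1, 2 and 3. Each miR-224 array lay below its own control, by -0.41, -0.78 and -1.13, although the groups overlapped across experiments. The mean was -0.77 ± 0.14 (SE; limma adjusted p = 0.23, unadjusted p = 0.00057), and without experiment 1 it was -0.96 and passed (limma adjusted p = 0.046). That fit called 0.242% of all probe sets lower and drops the experiment with the smallest FBXL5 difference. The pass therefore cannot decide whether FBXL5 differed. Without experiments 2 and 3 in turn the mean was -0.77 and -0.60 and did not pass (limma adjusted p = 0.71 and 0.52). Its other probe set averaged -0.37, at -0.46, -0.02 and -0.63.

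STEAP3, a ferric reductase of endosomes, read 6.97, 6.36 and 7.35 in control cells and 7.88, 7.36 and 7.72 in miR-224 cells. All 3 miR-224 values lay above all 3 control values, but narrowly (7.36 against 7.35 at the closest). Groups were apart in this direction for 4.02% of all probe sets. The differences were 0.91, 1.00 and 0.37, with a mean of 0.76 ± 0.14 (SE; limma adjusted p = 0.23, unadjusted p = 0.00053) and 0.68 without experiment 1. Its other probe set was higher in each experiment as well, with a mean of 0.46. RefSeq lists 1 antisense gene named for STEAP3.

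HERC2, a ligase that binds NCOA4, averaged -0.27 on its brightest probe set and 0.32 on the other, and RefSeq lists 11 pseudogenes named for it. FTL, the ferritin light chain, and TFRC, the transferrin receptor, differed by -0.04 and 0.07. Over the list, 10 of 17 measured genes had a lower and 7 a higher mean, with a median of -0.02. At an unadjusted p under 0.05 (limma with the block) 2 of 17 were lower, FBXL5 and HERC2, against 5.19% of all genes, and STEAP3 alone was higher, against 5.05%.

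**Figure D4:**
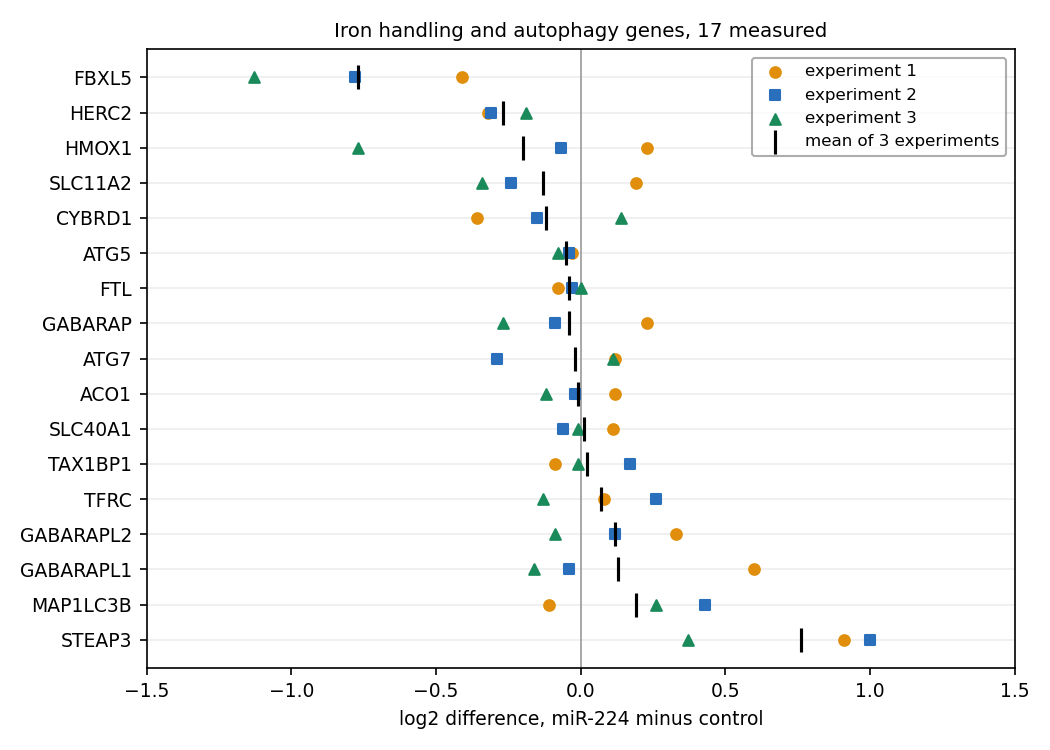
Log2 difference, miR-224 minus control, within each experiment for the brightest probe set of 17 genes of iron handling and autophagy, with symbols for experiments 1, 2 and 3 and black bars for their mean. FBXL5 (-0.77) and STEAP3 (0.76) lie at the ends with all 3 experiments on one side, and the other means lie between -0.27 and 0.19.

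Genes related to NCOA7 comprise the other TLDc proteins and subunits of the vacuolar proton pump. The 4 other TLDc genes measured (MEAK7, OXR1, TBC1D24 and the dim TLDC2) had a lower mean, as did 46.8% of all genes, and the 6 pump subunits ranged from -0.12 to 0.15. MEAK7 averaged -0.36 ± 0.12 (SE; limma adjusted p = 0.41), at -0.08, -0.42 and -0.59 in experiments 1, 2 and 3, and was at -0.50 without experiment 1. The mean of all MEAK7 probe sets was -0.17. OXR1, which protects cells from oxidative damage, averaged -0.22 (-0.12 without experiment 3). Its other probe sets above the median level averaged -0.39 (218197_s_at), -0.10 (235205_at) and -0.17 (223879_s_at), the last with 0.21 in experiment 2. TBC1D24 averaged -0.20, and -0.32 without experiment 1. TLDC2 was at -0.27, -0.28 and -0.30, with a mean level of 3.24. Over the list, 2 of 10 were lower at an unadjusted p under 0.05 (limma with the block), MEAK7 and TLDC2, against 5.19% of all genes, and 0 were higher, against 5.05%. The median was -0.08.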

How the data were processed

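Total RNA of 6 HCT116 samples was measured on 6 arrays. The deposited values, taken as log2, were made by the authors with RMA and Partek, per the submitters' processing notes; their versions and settings and the log base are not stated in what was used here. They run from 1.47 to 13.6, with array medians of 3.41 to 3.53. RMA makes arrays alike in distribution, so a shift shared by most genes is removed, and weak signals are compressed. The number of arrays limits the precision. Nothing says more of the cultures than that the pairs came from independent experiments.

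The 62 control probe sets were left out, and 54613 were fitted. Of these, 41091 had 1 gene symbol in the array annotation, 1801 had several and 11721 had none there. Each gene identifier was checked against the RefSeq table for a newer symbol (0 changed), and list symbols also by synonym. Differences in log2 were fitted by limma (version 3.58.1, under R 4.3.3), with lmFit followed by eBayes, two-sided tests and p-values adjusted by Benjamini-Hochberg across all probe sets at a threshold of 0.05, with experiment as a block, which leaves 2 residual degrees of freedom, 1 without one experiment and 4 without the block. Standard errors are moderated. Deviations from the group means correlated at 0.902, 0.734 and 0.783 within experiments 1, 2 and 3 and at -0.859 to 0.474 between them. Deviations from a group's own mean offset each other, which by itself lowers the correlations between experiments. The contrast therefore cannot decide the pairing, which the series states.

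All coregulator probe sets are given, and up to 3 genes per list by smallest unadjusted p among brightest probe sets above the median level. TBL1XR1, HDAC3, GPS2, FTL and TFRC and single other probe sets were chosen after their values were seen. Members and lists were chosen with earlier results of these data known. The fit was tested on simulated data whose changes were larger than any mean difference given here. That test therefore does not show how well smaller differences are found. Plots are from matplotlib 3.10.9 (Python 3.11.15).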

Additional observations from a re-analysis of the deposited data

How the results depend on the processing

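The number of arrays and the experiments' spread limit these results: 6 arrays, dim probe sets for NCOA2, NCOA6 and NCOA7, and moderated errors that rest on variances pooled over genes. The count of probe sets past the threshold, 0, was 0 to 137 with single experiments left out (137 without experiment 1), 28 with an intensity trend and robust variances, and 174 with one probe set per gene and without experiment 1, an alternative chosen after seeing the data. The count of coregulator probe sets lower at an unadjusted p under 0.05, 2, was 0 without experiment as a replicate block, 0 to 1 with single experiments left out, 1 among probe sets at or above the median level, 1 with the brightest probe set per gene (also without experiment 1) and 0 when the probe sets of each gene were averaged. It was 2 after quantile normalization or median centring of the arrays. The count of those higher was 0 under each alternative run. The NCOA6 median of -0.25 was -0.43 to -0.13 with single experiments left out, -0.54 where the dim probe set drops out (probe sets at or above the median level, or the brightest per gene) and -0.84 with one probe set per gene and without experiment 1. The lowest correlation within a pair, 0.734, was 0.585 with one probe set per gene. The block changed no call past the adjusted threshold.

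When the probe sets of each gene were averaged, the sign reversed for NCOA2 (-0.04), NCOA7 (-0.10) and HERC2 (0.02). With single experiments left out it reversed for NCOA1 210249_s_at (-0.17 to 0.06), NCOA1 209105_at (-0.10 to 0.20), NCOA2 215605_at (-0.04 to 0.17), NCOA2 205732_s_at (-0.27 to 0.06) and NCOA6 1568874_at (-0.01 to 0.08). The cause was not tested. Of the 42 probe sets followed, the other alternatives that keep all 6 arrays changed no sign.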
